A study of Mus musculus with 70 samples.

Results

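Resting muscle satellite cells, the stem cells of skeletal muscle (MuSCs), were compared with the 3 other cell populations sorted from the same uninjured tissue. The MuSC libraries were chosen by their sample titles as the day 0 MuSC libraries, and there were 3 of them among the 70 libraries of the series. The comparison group was the mean of 3 resting populations with 3 libraries each: CD31+ cells, largely endothelium, CD45+ cells, the leukocytes, and muscle mesenchymal stromal cells (MmSCs, titled MSC), which are fibroblast-like cells of the muscle interstitium. All 12 libraries came from the hindlimb muscles of C57BL/6J mice that had received no injury and no treatment, and their age and sex were not stated. The wider series profiled muscle cells after cytokine injection, after CTX-induced injury and in a dystrophy model, and the day 0 libraries served there as the resting state of each compartment. Muscle was digested enzymatically, cells were sorted in 2 rounds by flow cytometry, 1000 cells per library were lysed, and polyadenylated RNA was sequenced. No source used here names the surface markers of the MuSC gate, so a gene whose protein was used to sort may be among those below. The labels number the libraries as separate muscle samples and do not tie them to animals, so the p-values measure only the spread between these samples.

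Satellite cells lie between the plasma membrane of the muscle fibre and its basement membrane, and most of them are not dividing in uninjured adult muscle. The paired-box transcription factor Pax7 marks and maintains them, while the myogenic basic helix-loop-helix factors Myf5, Myod1 and Myog act at successive steps of commitment and differentiation. Notch signalling, in which a membrane ligand on one cell activates a receptor on the next and the released receptor domain acts with Rbpj on Hes and Hey genes, is known to keep satellite cells quiescent, and calcitonin receptor signalling and contact with laminin and cadherins are further parts of their niche.

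The MuSC libraries held 4134205, 2252373 and 4015393 counts, within the range of 2252373 to 7519352 over the 12 libraries, and 14830 of 55011 genes had enough counts to be tested. Values are CPM (counts scaled to a common library size) after TMM scaling, in the order of MuSC libraries 1, 2 and 3, and differences are fitted log2 values ± SE with adjusted p-values from edgeR's quasi-likelihood test. In MuSCs 3721 genes (25.1% of those tested) were higher than the mean of the other 3 populations and 3725 (25.1%) were lower at an adjusted p under 0.05, so 50.2% were called in either direction. A gene can pass that comparison because of 1 population, so a second test asked for a difference from each of the 3; 868 genes (5.85%) were higher than all 3 and 838 (5.65%) were lower than all 3. Taken one at a time, 3504 genes (23.6%) were higher and 3876 (26.1%) lower in MuSCs than in CD31+ cells, 4071 (27.5%) higher and 4297 (29%) lower than in CD45+ cells, and 2561 (17.3%) higher and 3483 (23.5%) lower than in MmSCs. The 3 MuSC libraries lay above all 9 others for 1666 genes (11.2%) and below all 9 for 1311 (8.84%). Over all tested genes the mean log2 profile of MuSCs correlated most with that of MmSCs (Pearson r 0.78 across 14830 genes, which are not independent replicates), then with CD31+ cells (0.663) and CD45+ cells (0.521). With scaling to library size alone the median difference of all tested genes moved from -0.05 to 0.36 on the log2 scale and 70% of the called genes were higher in MuSCs, against 50% with TMM, so differences of about that size depend on the scaling. In bulk RNA from sorted cells, fewer cells that express a gene and less of its RNA per cell cannot be told apart.

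**Figure D1:**
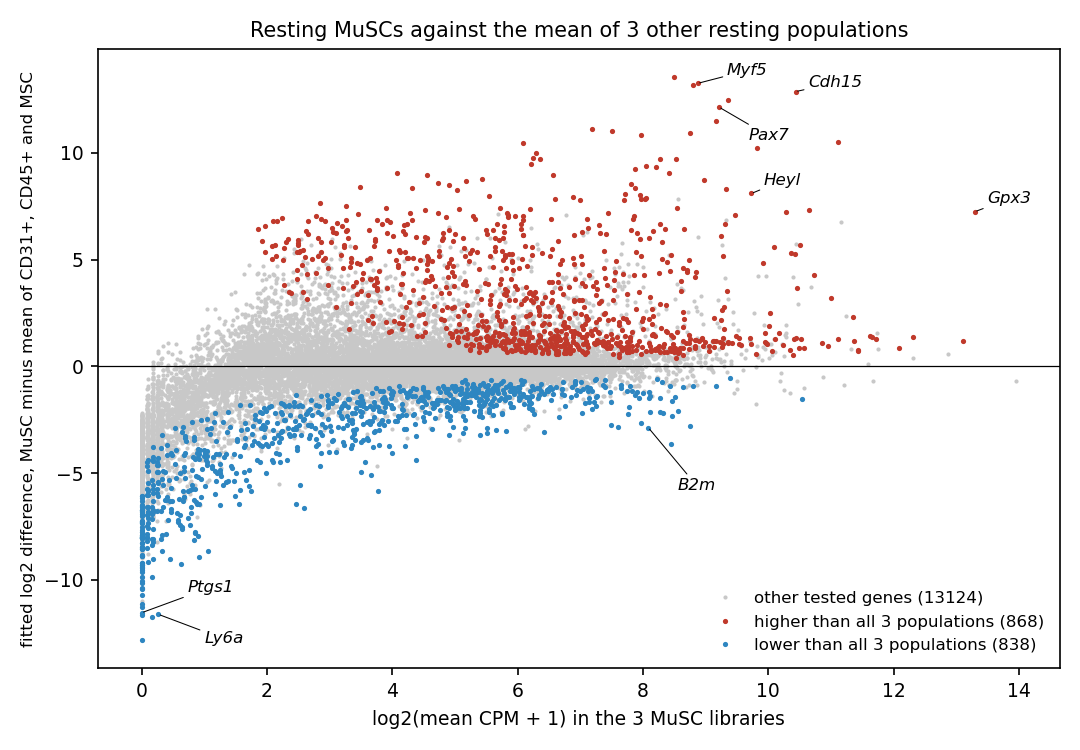
Each of 14830 tested genes by its level in resting MuSCs (log2 of mean CPM + 1) and the fitted log2 difference between MuSCs and the mean of the other 3 populations. The 868 genes higher than all 3 populations (red) reach differences above 12 on the log2 scale, where Myf5 and Cdh15 lie; the 838 genes lower than all 3 (blue) include Ly6a and Ptgs1, which were at or near 0 in MuSCs.

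The markers that define the cells were present in each MuSC library and at or near 0 elsewhere. Pax7 (chromosome 4, 139737062 to 139833528, minus strand, GRCm38) stood at 658, 521 and 597 CPM in the MuSC libraries. In the 9 other libraries it ranged from 0 to 2.33 CPM, and 8 of its counts there came from 1 CD31+ library. Pooled over libraries this was a 2458-fold difference, and the 95% counting interval, which covers counting error only, ran from 1294 to 5378. The fitted log2 difference of Pax7 was 12.14 and rose to 13.67 without that CD31+ library. Myf5 (chromosome 10, 107482908 to 107486134) stood at 451, 440 and 512 CPM, and in 1 CD31+ library it was at 0.304 CPM, with no count in the other 8 libraries. The groups did not overlap for either gene, and the 3 MuSC libraries differed little from each other. These 2 genes came with the definition of the comparison, so their levels serve as the check of the label. Both passed the filter on low counts through the MuSC libraries, so once tested they could come out only higher.

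Of 23 satellite cell identity genes, all of which were tested, 22 were higher than the mean of the other populations and 1 was lower; the list's median log2 difference was 7.23, against -0.05 over all tested genes. Against each population, 19 of the 23 were higher than all 3. Of all tested genes 25.1% were higher than the mean and 5.85% higher than all 3. The adhesion molecule M-cadherin (Cdh15, chromosome 8), which links the satellite cell to its fibre, stood at 1549, 1334 and 1269 CPM and at 0 to 2.39 CPM in the 9 other libraries. The calcitonin receptor gene Calcr (chromosome 6) stood at 458, 410 and 414 CPM against 0 to 0.875 CPM. The fibroblast growth factor receptor gene Fgfr4 gave 680, 614 and 671 CPM, with a single count in each of 3 other libraries. Each of these 3 genes separated MuSCs from every other library by more than 2 orders of magnitude. As with any other member with almost no count outside MuSCs, these 3 passed the filter on low counts through the MuSC libraries. Once tested, such genes could come out only higher. The list was also chosen with earlier results of these data known, so its shares are a description and not a test.

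Further identity genes were shared in part with another population. The laminin receptor subunit gene Itga7 stood at 312, 301 and 247 CPM in MuSCs and at 10 to 21.9 CPM in CD31+ cells, the highest of the others, with a smallest pairwise log2 difference of 4.16 (adjusted p for all 3 = 6.7e-08). Vcam1, an adhesion receptor often used to sort satellite cells, stood at 691, 579 and 593 CPM in MuSCs, at 48.6 to 53.6 in CD31+ cells and at 60 to 70.6 in MmSCs. Syndecan-4 (Sdc4), a heparan sulphate proteoglycan, was at 1451, 1163 and 1499 CPM in MuSCs and at 252 to 307 CPM in MmSCs. All 3 were higher than in every other population, but the margin over the nearest one differed: 3.29 on the log2 scale for Vcam1 and 2.34 for Sdc4.

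Gpx3, a secreted glutathione peroxidase, was at 11235, 7927 and 10994 CPM in MuSCs and at 2012 to 3823 CPM in MmSCs, with 0 to 32.4 CPM in the other 6 libraries. Its excess over MmSCs was 1.71 on the log2 scale (adjusted p for all 3 = 0.012); this call was lost without MuSC library 1 (adjusted p = 0.0596), MuSC library 3 (0.0517) or MmSC library 3 (0.0552), and with DESeq2 (0.563). Bcl2, an inhibitor of cell death, was higher than the mean of the others by 1.57 ± 0.19 (adjusted p = 6.4e-06) but not than all 3 (adjusted p = 0.084). Cd34 and Cxcr4, which are used in satellite cell gates, were not highest in MuSCs. Cd34 was at 500, 556 and 712 CPM, below the 3647 to 4065 CPM of MmSCs and the 1073 to 1289 CPM of CD31+ cells. Cxcr4, the receptor of Cxcl12, was at 9.76, 8.1 and 17.3 CPM and overlapped with CD31+ and CD45+ cells; its difference from the mean, 1.96 ± 0.52 (adjusted p = 0.0057), was no longer called without MuSC library 3 (1.54, adjusted p = 0.058). The 1 gene of the list that was lower was syndecan-3 (Sdc3), at 36, 34.9 and 26.2 CPM in MuSCs against 287 to 417 CPM in CD31+ and CD45+ cells (-2.10 ± 0.28, adjusted p = 1.9e-05), while MmSCs had 12.7 to 38.3 CPM.

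**Figure D2:**
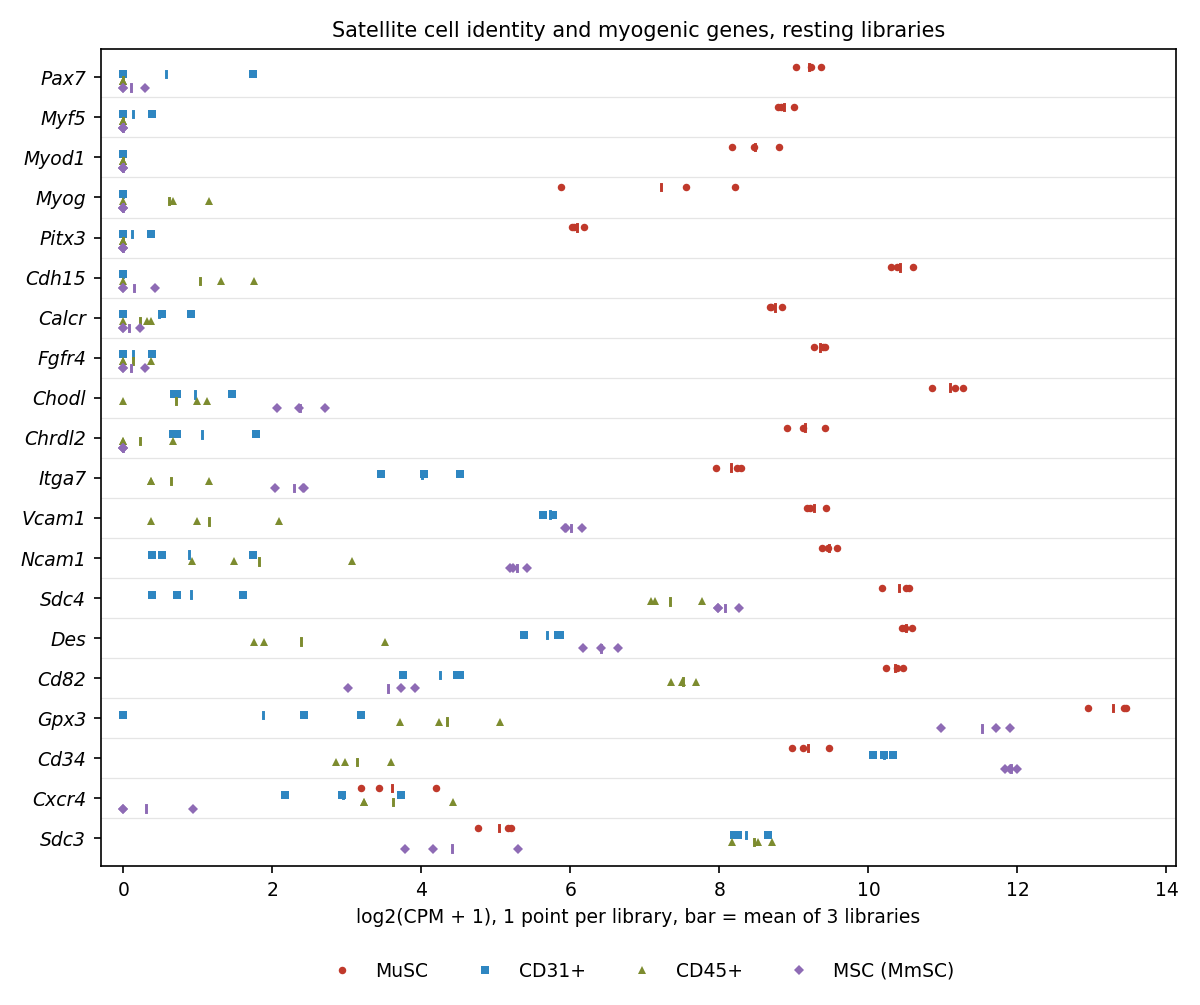
Levels of 20 identity and myogenic genes as log2(CPM + 1), with 1 point for each of the 3 libraries per population and a bar for their mean. Pax7, Myf5 and Myod1 are at 8 or more in each MuSC library and below 2 in the others, Myog spreads most among the MuSC libraries, and Cd34, Cxcr4 and Sdc3 are not highest in MuSCs.

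Several transcription factors of the myogenic lineage, Myod1 and Myog among them, were higher in MuSCs, while others were lower. Of 21 tested members of the list, 13 (61.9%) were higher than the mean of the others and 5 (23.8%) lower, with a median of 3.67. The share of all tested genes was 25.1% in each direction. Members with almost no count outside MuSCs, such as Myod1 and Myog, passed the filter through the MuSC libraries and could come out only higher. Myod1 (chromosome 7, 46376474 to 46379099) was at 351, 443 and 288 CPM in MuSCs and had no count in any of the 9 other libraries. Against a floor of 3 counts per library it was at least 473-fold higher (adjusted p = 2.5e-09); its fitted log2 value depends on the prior count and is not given. Myog, which drives differentiation, was at 187, 296 and 57.9 CPM in MuSCs and at 0 to 1.23 CPM elsewhere. Its pooled difference was 843-fold (counting interval 409 to 2100.5), and among the MuSC libraries the third had the least. Myf6, a further factor of this family, was low, at 4.98, 6.34 and 7.46 CPM, and had 2 counts in 1 MmSC library and none in the other 8.

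The homeobox gene Pitx3, at 65.3, 63.8 and 72 CPM in MuSCs, lay far above its highest value elsewhere, 0.292 CPM. Pax3, the paralogue of Pax7 in the embryonic muscle lineage, was at 15.5, 23.3 and 18.1 CPM and at 0 to 0.595 CPM in the others. Lbx1, a homeobox gene of migrating muscle precursors, was at 13.9, 11.3 and 18.3 CPM against at most 0.598. The fusion gene Mymk gave 21.9, 17.3 and 12.5 CPM. Its partner Mymx had no count in MuSCs and was not tested.

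Of the 12 members higher than all 3 populations, Eya1 and Snai2 held that call least firmly: Eya1 (adjusted p = 0.036) lost it without any 1 of the MuSC or CD31+ libraries or MmSC library 2, with adjusted p up to 0.181, and Snai2 (0.015) lost it without MuSC library 2 or 3 or MmSC library 1 or 3, with adjusted p up to 0.114. Both also lost it with no filter on low counts (0.0909 and 0.0799) and in a fit over all 24 sorted libraries (0.196 and 0.0606), and Eya1 with DESeq2 (0.0726) and with the replicate number as a block (0.0576).

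Other muscle-associated factors ran the other way. Mef2c, a MADS-box factor of muscle differentiation that is also known in endothelium and leukocytes, was at 3.98, 1.41 and 1.61 CPM in MuSCs against 213 to 225 CPM in CD31+ cells, 288 to 311 CPM in CD45+ cells and 34 to 51.5 CPM in MmSCs (-5.82 ± 0.26, adjusted p = 2.4e-10; lower than all 3, adjusted p = 9.5e-08). Mef2a was lower than all 3 as well (10.9, 14.1 and 16.3 CPM, nearest pairwise difference -1.04, adjusted p = 0.004), a call that was lost with scaling to library size alone (adjusted p = 0.644). Meox2, a homeobox gene, was at 0, 0.705 and 1.81 CPM in MuSCs, at 645 to 779 CPM in CD31+ cells and at 575 to 651 CPM in MmSCs, and differed from the mean by -7.07 ± 0.46 (adjusted p = 1.3e-08).

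Among the 15 genes with the widest margin over every other population, taken from genes with a mean of 20 CPM or more whose libraries did not overlap, were Myod1, Fgfr4, Myf5, Chrna1, Gal, Cdh15, Calcr, Pax7, Pitx3, Chodl, Chrdl2, Ntn5, Rapsn and Erfe, in that order; 689 genes met the conditions. Where the other libraries hold almost no counts, the fitted margin depends on the prior count and the depth, so the order is approximate. Such genes passed the filter on low counts through the MuSC libraries, so once tested they could come out only higher. Beside the identity genes and factors above, the 15 genes included secreted proteins. The neuropeptide gene Gal (galanin) was at 247, 252 and 246 CPM in MuSCs and at 0 to 0.46 CPM in the other libraries. Erfe, which encodes the hormone erythroferrone, was at 450, 211 and 266 CPM against 0 to 1.79, and the bone morphogenetic protein antagonist gene Chrdl2 at 684, 481 and 555 CPM against 0 to 2.43. The membrane lectin gene Chodl was at 2463, 1850 and 2295 CPM in MuSCs and at 3.2 to 5.52 CPM in MmSCs, the highest of the others. Ntn5, a netrin, was at 144, 162 and 130 CPM and at no more than 0.69 CPM elsewhere. Exons of Ntn5 overlap those of Sec1 on the other strand over 23.4% of their length and those of Erfe overlap Ilkap over 12.7%, and no source used here states the strand setting of the counting, so some of these reads may belong to the overlapping gene.

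Genes of the neuromuscular junction, the synapse of motor nerve and fibre, were mostly higher in MuSCs. Of 9 tested members, from a list of 11, 7 (77.8%) were higher than the mean of the others and none was lower (median 4.99). All 3 populations were exceeded by 5 of them. Over all tested genes these shares were 25.1% and 5.85%. Chrna1, the alpha subunit of the muscle acetylcholine receptor, was at 420, 522 and 387 CPM in MuSCs with 1 count in the 9 other libraries together. Rapsn, the receptor-clustering protein rapsyn, was at 309, 378 and 335 CPM against 0 to 2.06 CPM. Chrna1 and Rapsn passed the filter on low counts through the MuSC libraries, so once tested they could come out only higher. Musk, the receptor kinase that organises the synapse, was at 661, 570 and 691 CPM in MuSCs and at 133 to 162 CPM in MmSCs, with at most 1.52 CPM in the others. The beta subunit Chrnb1 was at 416, 412 and 445 CPM in MuSCs and at 84.3 to 96.7 CPM in CD31+ cells. All 4 were higher in MuSCs than in each other population without overlap, and the nearest population differed from gene to gene.

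Promoter sequences from RefSeq (GRCm38.p6) were matched to 11 of the 15 genes, and 3 of the 11 carried an E-box of the myogenic bHLH type, CAGCTG, which reads the same on both strands, in the 250 bases before the start; no match was found for GTGGGAA or its reverse complement, the site of Rbpj, in those 11. The Pax7 and Myf5 windows carried neither motif, and the table had no entry for Myod1 or Heyl. The 3 promoters are printed to show where the E-boxes lie, chosen after the values were seen; each is on its own line, 5′ to 3′ on the gene's strand with CAGCTG in capitals.
Chrna1, chr2:73580339-73580588, minus strand: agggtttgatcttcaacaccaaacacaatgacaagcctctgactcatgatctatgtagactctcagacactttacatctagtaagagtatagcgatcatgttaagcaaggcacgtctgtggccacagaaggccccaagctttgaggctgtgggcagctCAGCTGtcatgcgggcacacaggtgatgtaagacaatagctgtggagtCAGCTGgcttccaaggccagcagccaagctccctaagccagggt
Ntn5, chr7:45683772-45684021, plus strand: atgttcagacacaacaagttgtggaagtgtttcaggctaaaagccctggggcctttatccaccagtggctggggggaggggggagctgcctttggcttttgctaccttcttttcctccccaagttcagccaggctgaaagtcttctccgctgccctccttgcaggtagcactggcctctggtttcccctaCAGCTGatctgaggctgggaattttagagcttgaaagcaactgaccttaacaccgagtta
Pitx3, chr19:46148326-46148575, minus strand: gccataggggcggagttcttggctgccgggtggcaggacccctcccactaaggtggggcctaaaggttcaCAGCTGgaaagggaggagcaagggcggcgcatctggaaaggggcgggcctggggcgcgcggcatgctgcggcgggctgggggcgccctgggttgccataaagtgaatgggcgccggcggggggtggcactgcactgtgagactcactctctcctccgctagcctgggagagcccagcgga
The Chrna1 promoter has 2 E-boxes, at -92 and -44 from the start, that of Ntn5 has 1 at -60 and that of Pitx3 has 1 at -180. Of the 27025 genes with a promoter in the table, 14.7% held CAGCTG and 6.18% the Rbpj motif in this stretch of any of their promoters. For the 10879 tested genes among them the shares were 14.7% and 6.4%. Of the 585 genes (3.94% of those tested) higher than all 3 populations by more than 1 on the log2 scale, 391 had a promoter in the table, of which 20.2% held CAGCTG and 8.18% the Rbpj motif. Of the 608 genes (4.1%) lower than all 3 by that margin, 462 had one, of which 18.4% held CAGCTG and 6.93% the Rbpj motif. A match is a run of letters and not a measured site.

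The 5 genes whose levels followed Pax7 most closely across the 12 libraries, by Pearson's r of log2(CPM + 1), were Pitx3, Calcr, Fitm1, Gal and Jsrp1, with r from 0.9936 to 0.9964. The values share a simple form, high in 3 libraries and near 0 in 9. Fitm1, which acts in lipid droplet formation in muscle, was at 39.2, 50.7 and 47.4 CPM in MuSCs and at 0 to 1.46 CPM elsewhere, and Jsrp1, a junctional protein of the sarcoplasmic reticulum, was at 132, 125 and 121 CPM against 0 to 1.75. Outside MuSCs both were highest in the CD31+ library that held the Pax7 counts.

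The Notch pathway showed both high and low members in MuSCs. Of 24 tested genes 11 were higher than the mean of the others and 8 lower, with a median of 0.18, against 25.1% of all genes in each direction. The values below are given by role. Among ligands, Dll1 stood at 37.4, 35.9 and 29.8 CPM in MuSCs and at 44.3 to 59.7 CPM in CD31+ cells, and at no more than 0.896 CPM in CD45+ cells and MmSCs. Dll4, the main endothelial ligand, had 1 count in the MuSC libraries and 457 to 548 CPM in CD31+ cells. Jag1 was at 73.5, 86.3 and 69.8 CPM in MuSCs, between CD31+ cells (96.1 to 112) and CD45+ cells (2.46 to 8.03).

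Among receptors, Notch3 was at 614, 644 and 561 CPM in MuSCs, at 43.5 to 60.1 CPM in CD31+ cells and at no more than 8.59 CPM in the rest, and was higher than all 3 populations (smallest pairwise log2 difference 3.48, adjusted p = 8.3e-07). Notch1 (430, 371 and 314 CPM) overlapped with CD31+ cells (356 to 511 CPM), and Notch2 (471, 471 and 541 CPM) with CD45+ cells (453 to 488 CPM). Notch4 was at 2.39, 1.06 and 1.61 CPM, against 198 to 273 CPM in CD31+ cells. Each of the other populations had at least 1 of these 3 receptor genes far below its level in MuSCs. Of the modifiers, the fringe gene Mfng was at 2.19, 0.705 and 0.403 CPM in MuSCs and at 81.4 to 219 CPM in CD45+ and CD31+ cells, and Lfng was at 0 to 0.806 CPM in MuSCs against 1.83 to 21.7 CPM elsewhere. The DNA-binding factor gene Rbpj was at 22.9, 18.7 and 21.2 CPM, below CD45+ cells (71.6 to 118 CPM) and above CD31+ cells (9.85 to 13.4 CPM).

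The target gene Heyl (chromosome 4, 123233556 to 123249875) separated MuSCs from every other library, at 978, 821 and 746 CPM against 11.6 to 20.5 CPM in CD31+ cells and MmSCs and at most 0.297 CPM in CD45+ cells (8.10 ± 0.19, adjusted p = 5.9e-13). Hey1 was at 262, 212 and 244 CPM, close to the 170 to 225 CPM of CD31+ cells, and was not called higher than all 3 (adjusted p = 0.92). Hes1 was at 120, 74 and 91.7 CPM and higher than the mean of the others by 2.01 ± 0.33 (adjusted p = 0.00014), with the MmSC libraries reaching 70.7 CPM. Lfng and the coactivator gene Maml2 (38, 42.6 and 52.4 CPM against 63.3 to 165) were the 2 members lower than all 3 populations (adjusted p = 0.026 and 0.041). Scaling to library size alone ended both calls (0.198 and 1), as did leaving out MuSC library 1 (0.0713 and 0.172), MuSC library 2 (0.0616 and 0.111), MmSC library 1 (0.0643 and 0.0675) or MmSC library 2 (0.0878 and 0.0655), and Maml2 also lost it without CD45+ library 1 (0.0944) or 2 (0.103) or MmSC library 3 (0.0614), with DESeq2 (0.0564), with no filter on low counts (0.161) and with 24 libraries (0.144). Nrarp, a feedback inhibitor, had no count in MuSCs and 8.31 to 12.8 CPM in CD31+ cells.

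**Figure D3:**
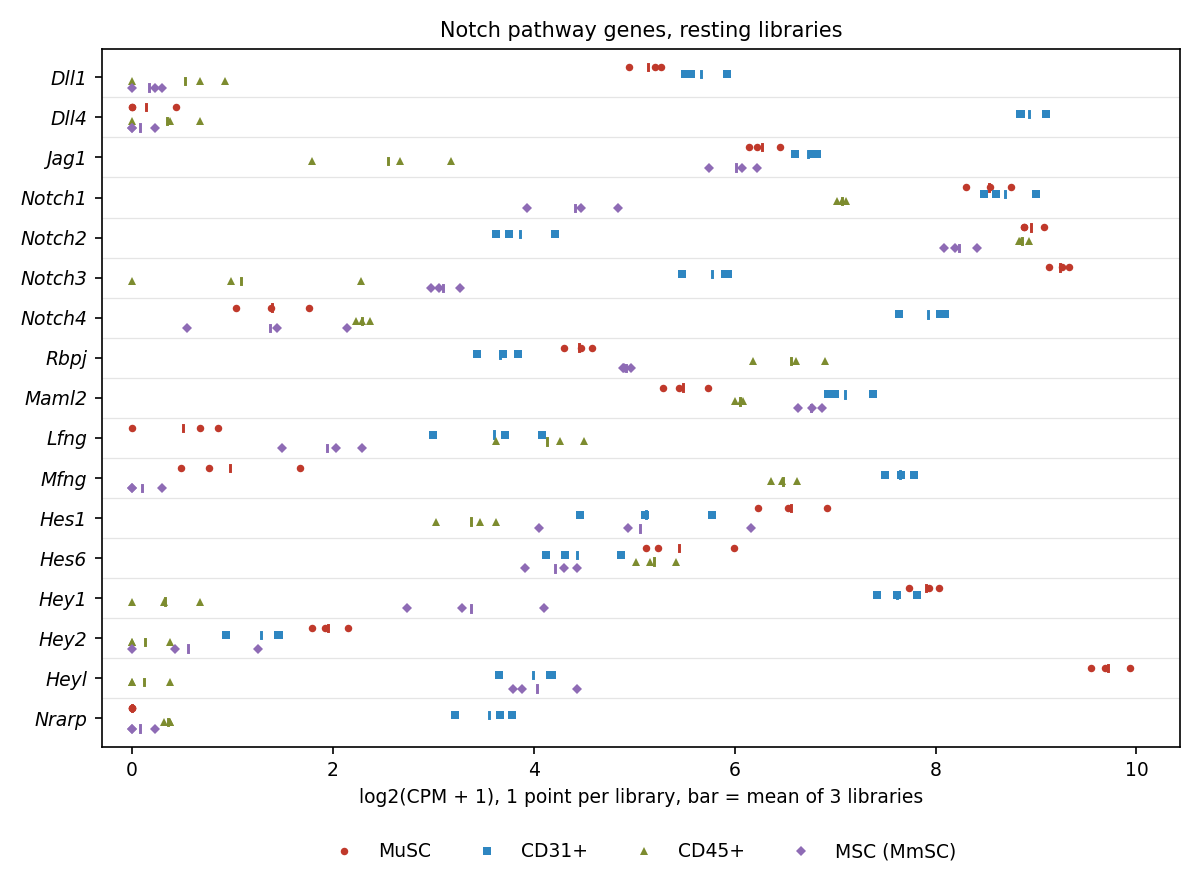
Levels of 17 Notch pathway genes as log2(CPM + 1), with 1 point for each of the 3 libraries per population and a bar for their mean. Notch3 and Heyl are highest in MuSCs, Dll4 and Notch4 are high in CD31+ cells alone, and Hey1 is shared by MuSCs and CD31+ cells.

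Genes that attach satellite cells to fibre and matrix included several high members. Of 22 tested niche adhesion and dystrophin complex genes 12 (54.5%) were higher than the mean of the others and 6 (27.3%) lower (median 1.09). The lower share lay near the 25.1% of all tested genes, which was also the share higher. Against CD45+ cells 15 were higher and 5 lower, beside 27.5% and 29% of all genes. Against CD31+ cells 9 were higher and 8 lower (23.6% and 26.1% of all genes), and against MmSCs 8 and 8 (17.3% and 23.5%). The list summed to 2806 to 3054 CPM in MuSCs and to 2950 to 3147 CPM in CD31+ cells. Dag1, dystroglycan, was at 1726, 1878 and 1507 CPM in MuSCs and at 15.2 to 242 CPM in the others (4.30 ± 0.16, adjusted p = 3.5e-11). Sgca, the muscle sarcoglycan, was at 140, 119 and 150 CPM against at most 3.04 CPM. Dystrophin (Dmd) was at 217, 158 and 179 CPM in MuSCs, at 68.9 to 82.2 CPM in CD31+ cells and at 41.5 to 49.7 CPM in MmSCs. Those 3 and the cadherin gene Cdh4 were higher than all 3 populations.

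Of the integrin alpha subunit genes, Itga6, Itga1 and Itga5 were lower than all 3 populations. Itga6 had no count in the MuSC libraries, against 169 to 218 CPM in CD31+ cells and 11.4 to 18.7 CPM in CD45+ cells; MmSCs, at 0.69 to 1.37 CPM, were also near 0, and the call of Itga6 against all 3 was lost in the fit with 24 libraries (adjusted p = 0.112). Itga1 was at 1.19, 1.76 and 1.21 CPM and Itga5, the fibronectin receptor subunit, at 18.1, 15.5 and 14.1 CPM, below all 3 populations (nearest pairwise differences -2.43 and -1.78, adjusted p = 0.00011 and 2e-06). Itgb1, the beta subunit that pairs with these, was at 116, 107 and 112 CPM and overlapped with CD45+ cells.

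Among 19 basement membrane genes 10 (52.6%) were higher than the mean of the others and 6 (31.6%) lower (median 0.55), against 25.1% of all genes each way. None was higher than all 3 and 1 was lower. Against single populations, 15 were lower than in MmSCs, 11 lower than in CD31+ cells and 15 higher than in CD45+ cells. The laminin chain gene Lama2 was at 174, 189 and 195 CPM in MuSCs, below MmSCs (477 to 574 CPM) and above CD31+ cells (1.82 to 5.25 CPM). Lama5 was at 50.4, 44.4 and 49.6 CPM, below CD31+ cells (317 to 422 CPM) and above MmSCs (0.46 to 1.83 CPM). Lama3 was at 92.8, 59.5 and 45.4 CPM, overlapping with CD31+ cells (48.4 to 56.8 CPM). The fibronectin gene Fn1 was at 17.3, 7.75 and 12.7 CPM in MuSCs, and it was lower than all 3 populations, which ranged from 112 to 3873 CPM (nearest pairwise difference -3.30, adjusted p = 7.4e-07).

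Interstitial collagen genes also lay between populations, with 6 of 10 higher than the mean of the others and 2 lower, against 25.1% of all genes each way. Col3a1 was at 1013, 1099 and 870 CPM in MuSCs, at 13037 to 22462 CPM in MmSCs and at no more than 7.62 CPM in CD31+ and CD45+ cells. It was 4.23 ± 0.32 above the mean of the logs and differed from MmSCs by -4.26. Col5a1 (175, 175 and 131 CPM) and Col6a1 (359, 413 and 343 CPM) had the same order. Col14a1, by contrast, was at 0.597, 1.06 and 0.202 CPM in MuSCs against 961 to 1296 CPM in MmSCs and 27.1 to 35.9 CPM in CD45+ cells (-6.22 ± 0.44, adjusted p = 3.1e-08), and the MmSC marker Pdgfra was at 0.199, 0.352 and 0 CPM. The ratio of MuSC to MmSC levels thus differed widely between collagens in the same libraries.

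Of 24 tested growth factor receptor genes 12 (50%) were higher than the mean of the others and 4 (16.7%) lower (median 0.98), against 25.1% of all genes each way. Against CD45+ cells 16 were higher and 3 lower, beside 27.5% and 29% of all genes. Against CD31+ cells 8 were higher and 8 lower (23.6% and 26.1% of all genes), and against MmSCs 7 and 8 (17.3% and 23.5%). The list summed to 1767 to 1995 CPM in MuSCs and to 2418 to 2593 CPM in MmSCs. Beside Fgfr4, which belongs to the identity list, Fgfr1 was at 635, 603 and 605 CPM in MuSCs and at 288 to 341 CPM in MmSCs (smallest pairwise log2 difference 0.99, adjusted p for all 3 = 0.0017). Met, the receptor of hepatocyte growth factor, which is known to act on satellite cell activation, was at 33.2, 41.2 and 32.5 CPM against 1.82 to 10.1 CPM in the other libraries. Ngfr, the low-affinity neurotrophin receptor gene, was at 56.9, 75 and 45.8 CPM against 0 to 8.37. These 3 were higher than all 3 populations. Ret (59.5, 45.5 and 41.1 CPM) and its co-receptor gene Gfra1 (87.4, 65.9 and 83.3 CPM) were shared with MmSCs, which had 79 to 134 and 39.1 to 49.1 CPM. The receptor of the growth-inhibiting ligand TGF-beta, Tgfbr2, was at 71.1, 74.7 and 69.8 CPM, below the 123 to 642 CPM of the others (nearest pairwise difference -0.93, adjusted p = 0.0042), a call lost with scaling to library size alone (adjusted p = 0.0703).

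Genes tied to the cell cycle included members that were higher and members that were lower in MuSCs. Of 19 cell cycle inhibitor and quiescence genes 5 were higher than the mean of the others and 4 lower, with a median of 0.14, so both shares lay near those of all genes; with scaling to library size alone 10 were higher. The cyclin-dependent kinase inhibitor gene Cdkn2c (p18) was at 55.5, 48.6 and 74.6 CPM in MuSCs against 8.74 to 16.1 CPM elsewhere (2.32 ± 0.19, adjusted p = 1.1e-07). Cdkn1a (p21) went the other way, at 36.2, 33.1 and 15.3 CPM against 72.3 to 206 CPM, and was lower than all 3 (nearest pairwise difference -2.08, adjusted p = 0.00051). Ccnd2, a D-type cyclin, was nearly absent from MuSCs, at 0, 0.705 and 0.403 CPM, against 101 to 234 CPM in the other 9 libraries. Of 21 tested mitotic genes 1 (4.76%), Bub1b, was higher than the mean of the others and none was lower, against 25.1% of all genes each way. Against CD45+ cells 9 of the 21 were lower, beside 29% of all genes, and 0 were higher. Against CD31+ cells 2 were higher (23.6% of all genes) and against MmSCs 3 (17.3%), with 0 lower in either. Bub1b was at 4.98, 5.99 and 4.64 CPM in MuSCs against 0.344 to 10.8 CPM (adjusted p = 0.043), and its call was lost in 10 of the 12 fits that left out 1 library, all but those without CD31+ library 1 or MmSC library 2, so that 0 to 2 members were higher over these fits. Their summed level was 156, 161 and 33.5 CPM in the MuSC libraries, 18.8 to 84.3 CPM in CD31+ cells, 261 to 474 CPM in CD45+ cells and 12.2 to 81.6 CPM in MmSCs, so the MuSC libraries differed among themselves by more than 4-fold.

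Immediate-early genes, which digestion and sorting are known to induce, were split, with 10 of 28 tested higher and 10 lower (median -0.27). That is 35.7% in each direction, against 25.1% of all tested genes. All 4 populations went through the same protocol, and the part of dissociation in these values was not tested. Myc was at 242, 183 and 164 CPM in MuSCs against 14.3 to 96.2 CPM, Jun at 1598, 1287 and 1202 CPM against 339 to 803 CPM, and Fosb at 75.7, 57.4 and 47 CPM against 4.26 to 22.3 CPM. These were higher than all 3 populations. Klf2, a factor known from endothelium and lymphocytes, had 0.796, 0 and 0 CPM against 14 to 76.7 CPM, and Klf4 (22.7, 19.7 and 22 CPM against 68.7 to 238) and Klf6 (163, 117 and 176 CPM against 335 to 747) were lower than all 3 as well, as was Ier5 (1.19, 0.705 and 0.806 CPM against 3.88 to 39.3).

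In glycolysis 9 of 25 tested genes (36%) were higher and 7 (28%) lower (median 0.02). Against CD45+ cells 7 of the 25 were higher and 14 lower, beside 27.5% and 29% of all genes. Against MmSCs 13 were higher and 4 lower (17.3% and 23.5% of all genes), and against CD31+ cells 9 and 5 (23.6% and 26.1%). In fatty acid oxidation 9 of 18 (50%) were higher and 3 (16.7%) lower (median 0.27), against 25.1% of all genes in each direction. Of the fatty acid genes 9 were higher and 2 lower than in CD45+ cells, but 3 were higher and 4 lower than in MmSCs. Only 1 was higher than all 3 populations. The fatty acid list summed to 1349 to 1559 CPM in MuSCs, 1511 to 1571 CPM in MmSCs, 1447 to 1855 CPM in CD45+ cells and 5977 to 7462 CPM in CD31+ cells. The highest margin among the glycolytic genes was that of Ldhb, the heart-type lactate dehydrogenase subunit, at 98.9, 66.2 and 74.4 CPM in MuSCs against 6.87 to 20.4 CPM in the others (smallest pairwise log2 difference 2.33, adjusted p for all 3 = 4.5e-05). Gapdh (616, 650 and 573 CPM against 208 to 416) was higher than all 3 by at least 0.63 on the log2 scale. The fatty acid transporter gene Cd36 had no count in MuSCs, against 4651 to 6220 CPM in CD31+ cells, 441 to 741 CPM in CD45+ cells and 1.14 to 4.64 CPM in MmSCs. Without MuSC library 1 or without library 2 the glycolytic genes called higher were 5, and without MuSC library 3 the fatty acid genes called higher were 5.

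The 10 genes with the widest margin below every other population, at 20 CPM or more in each of them, were Ptgs1, Gda, Icam1, Gngt2, Ccnd2, Ly6a, Ifi203, Entpd1, Phf11d and Ifi27l2a, from 496 that met the conditions. Their order is approximate, since fitted margins near 0 counts in MuSCs depend on the prior count. The cyclooxygenase-1 gene Ptgs1 had no count in MuSCs and 55.2 to 77.8 CPM in MmSCs, the lowest of the others, a difference of at least 89.2-fold against the floor. Gda, guanine deaminase, had no count either, against 22.4 to 32.5 CPM in MmSCs and over 100 CPM in the other 6 libraries (at least 34.4-fold). The adhesion receptor gene Icam1 had 1 count in MuSC library 2 and was at 79.6 to 130 CPM in the other populations. The ectonucleotidase gene Entpd1 (CD39) was at 0.597, 1.06 and 0 CPM against 96.8 to 665 CPM. Ly6a, which encodes the stem cell antigen Sca-1 and is often used to exclude cells from satellite cell gates, was at 0, 0 and 0.605 CPM against 48.4 to 3214 CPM. Ifi203, Phf11d and Ifi27l2a belong to the interferon-inducible genes, and each had at most 2.47 CPM in a MuSC library and at least 38 CPM in every other library. Ifi203 is 1 of a family of close copies, so its reads may be shared within that family.

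Genes of antigen presentation on MHC class I were lower as a group. All 14 members of the list were tested and lower than the mean of the others, with a median of -2.07, against 25.1% lower over all genes, and 6 of 14 were lower than all 3 populations; with scaling to library size alone 12 of 14 were lower and Canx, a chaperone gene, changed sign (0.016). The light chain gene B2m was at 239, 269 and 303 CPM in MuSCs, at 976 to 1288 CPM in MmSCs and at 2319 to 2905 CPM in CD31+ and CD45+ cells (-2.87 ± 0.15, adjusted p = 9.6e-10). The heavy chain gene H2-D1 was at 434, 396 and 465 CPM against 1334 to 5008 CPM, and H2-K1 at 354, 408 and 367 CPM against 657 to 2652 CPM. Tapasin (Tapbp), which loads peptides, was at 154, 144 and 136 CPM against 450 to 733 CPM. The immunoproteasome subunit gene Psmb8 was at 32.8, 39.1 and 31.9 CPM, against 65.7 to 90.7 CPM in MmSCs and 348 to 552 CPM in the other libraries. None of the 3 MuSC libraries overlapped with another population for these 5 genes. The calls of H2-K1 and Psmb8 against all 3 were lost with scaling to library size alone (adjusted p = 0.201 and 0.0516). H2-D1 and H2-K1 belong to a family of close copies, and no source used here states how reads shared between such copies were counted.

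**Figure D4:**
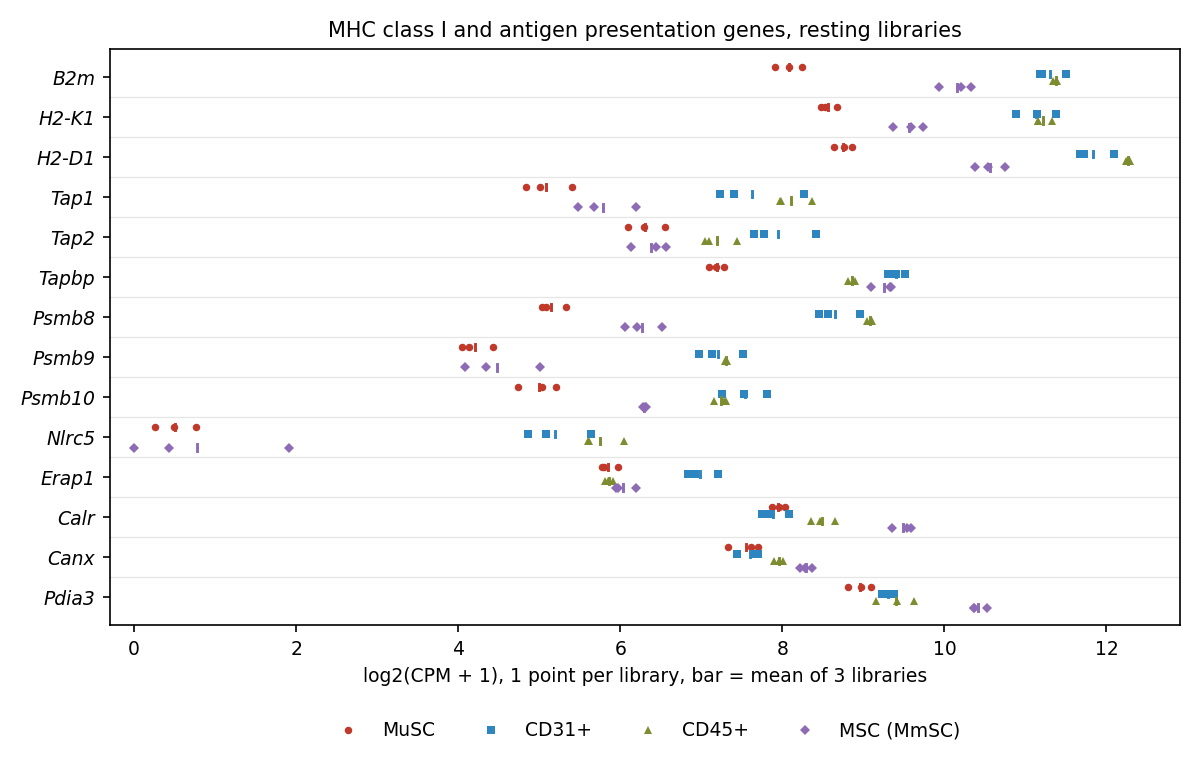
Levels of 14 MHC class I and antigen presentation genes as log2(CPM + 1), with 1 point for each of the 3 libraries per population and a bar for their mean. For B2m, H2-D1, H2-K1, Tapbp, Psmb8 and Psmb10 the MuSC libraries lie below all 9 others.

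Most markers of the other sorted cells were near 0 in MuSCs, and their part in the differences above was not tested. Pecam1, which encodes CD31, was at 0.398, 0.705 and 1.01 CPM against 1992 to 2287 CPM in CD31+ cells, and Ptprc, which encodes CD45, at 0, 0 and 0.605 CPM against 727 to 905 CPM in CD45+ cells. The summed level of 10 pan-leukocyte markers was 1.99 to 3.17 CPM in MuSCs and 13842 to 14418 CPM in CD45+ cells. That of 15 endothelial markers was 108 to 129 CPM against 19547 to 21390 CPM in CD31+ cells, and in MuSCs it came mostly from Eng (59.9, 74.7 and 78.8 CPM) and Tek (45.6, 24.7 and 40.7 CPM), while Cdh5, Tie1, Kdr and Emcn were at no more than 1.06 CPM and 4 of the 15 had no count. The summed level of 17 MmSC markers was 1114 to 1217 CPM against 70213 to 92668 CPM in MmSCs, and in MuSCs it came mostly from Col3a1. Of the tested markers, 0 of 15 endothelial, 0 of 10 pan-leukocyte and 1 of 16 MmSC genes (Col3a1) were higher in MuSCs than in the mean of the others, and 10, 9 and 10 were lower. Each list is high in its own population, which is part of that mean, so few members could come out higher. Against the own population 15, 10 and 16 were lower in MuSCs. Against MmSCs 2 endothelial markers were higher and 2 lower, and 0 pan-leukocyte markers were called. The MmSC markers gave 5 higher and 5 lower against CD31+ cells, and 6 and 6 against CD45+ cells. A marker such as Cldn5 or Tyrobp that is at 0 in MuSCs and in 1 more population has no usable error in a mean of logs, so it is not called there.

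Other cells that the gate could hold were looked for in the same way. The macrophage, lymphocyte and neutrophil lists summed to at most 7.76, 4.18 and 0.352 CPM in a MuSC library, with 8 of 10, 5 of 12 and 1 of 7 tested members lower than the mean and none higher, and the 6 erythrocyte markers to at most 2.11 CPM, with 2 of 4 tested lower. The lower counts of these lists moved with single libraries: 1 to 5 for lymphocyte, 0 to 2 for neutrophil and 0 to 3 for erythrocyte markers when each library was left out in turn, with the fewest lymphocyte calls without MuSC library 3. The macrophage, lymphocyte and neutrophil lists are high in CD45+ cells, which are part of the mean, so few of their members could come out higher. The 12 pericyte and smooth muscle markers summed to 2589 to 3499 CPM, above the 655 to 918 CPM of CD31+ cells, with 4 of 10 tested higher and 3 lower; nearly all of it came from Des, Acta2 and Notch3, of which Des and Notch3 are also in lists above, while Rgs5 was at 3.02 to 4.23 CPM and Myh11 at 0 to 0.796 CPM. Acta2 itself was at 888, 1393 and 597 CPM in MuSCs and at 315 to 408 CPM in CD31+ cells. The 9 Schwann cell markers summed to 806 to 892 CPM, of which Pmp22 made up 801 to 883 CPM, while Cdh19 and Gfra3 had no count in MuSCs. Among 4 tested, 1 was higher and 1 lower. For all these lists the share of all tested genes is 25.1% in each direction.

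One MuSC library stood apart for tendon genes. The 7 tenocyte markers summed to 4.58 and 2.82 CPM in MuSC libraries 1 and 2 and to 280 CPM in library 3. Tnmd was at 0, 0 and 32.7 CPM, Thbs4 at 0.199, 0 and 146 CPM and Fmod at 0.597, 0 and 84.9 CPM. The same library was lowest for Myog and for the summed mitotic genes, and whether these go together was not tested. In MmSCs the tenocyte list summed to 577 to 1332 CPM, and Dcn, abundant there, was at 27.7, 2.47 and 69.4 CPM in MuSCs. None of the 5 tested tenocyte genes was higher than the mean of the others and 1 was lower; without MuSC library 3, 4 were lower, and without library 1 or 2, 2 were higher.

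Genes of the muscle fibre were detected in MuSCs, and most were higher there than the mean of the other populations. Of 22 tested myofibre and sarcomere genes 19 (86.4%) were higher than the mean of the others and none was lower (median 1.61), against 25.1% of all genes each way. Against single populations, 13 of these genes were higher than in CD31+ cells, 14 than in CD45+ cells and 11 than in MmSCs, with 1 lower than in MmSCs. Their summed level was 963 to 1054 CPM in MuSCs, 210 to 310 CPM in CD31+ cells, 166 to 236 CPM in CD45+ cells and 288 to 596 CPM in MmSCs. Acta1, the skeletal muscle actin, was at 216, 204 and 200 CPM in MuSCs and at 82.6 to 254 CPM in MmSCs, where the libraries overlapped. Atp2a1, the calcium pump of the sarcoplasmic reticulum, was at 173, 150 and 134 CPM against 4.86 to 35.1 CPM in the other libraries, and the alpha-actinin gene Actn3 at 195, 188 and 184 CPM against 0 to 49.7 CPM. Mybpc1 (52.6, 40.5 and 60.5 CPM against at most 1.79) and Tnnt1 (54.5, 53.6 and 50.4 CPM against at most 6.13) were, with those 2, the 4 genes of the list higher than all 3 populations. Fibre genes were thus detected in every population, and the part of RNA released from fibres was not tested. Exons of Atp2a1 overlap those of Rabep2, on the other strand, over 21.9% of their length. Rabep2 was at 69.6 CPM in MuSCs and the strand setting is not stated, so some Atp2a1 reads may belong to Rabep2.

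**Figure D5:**
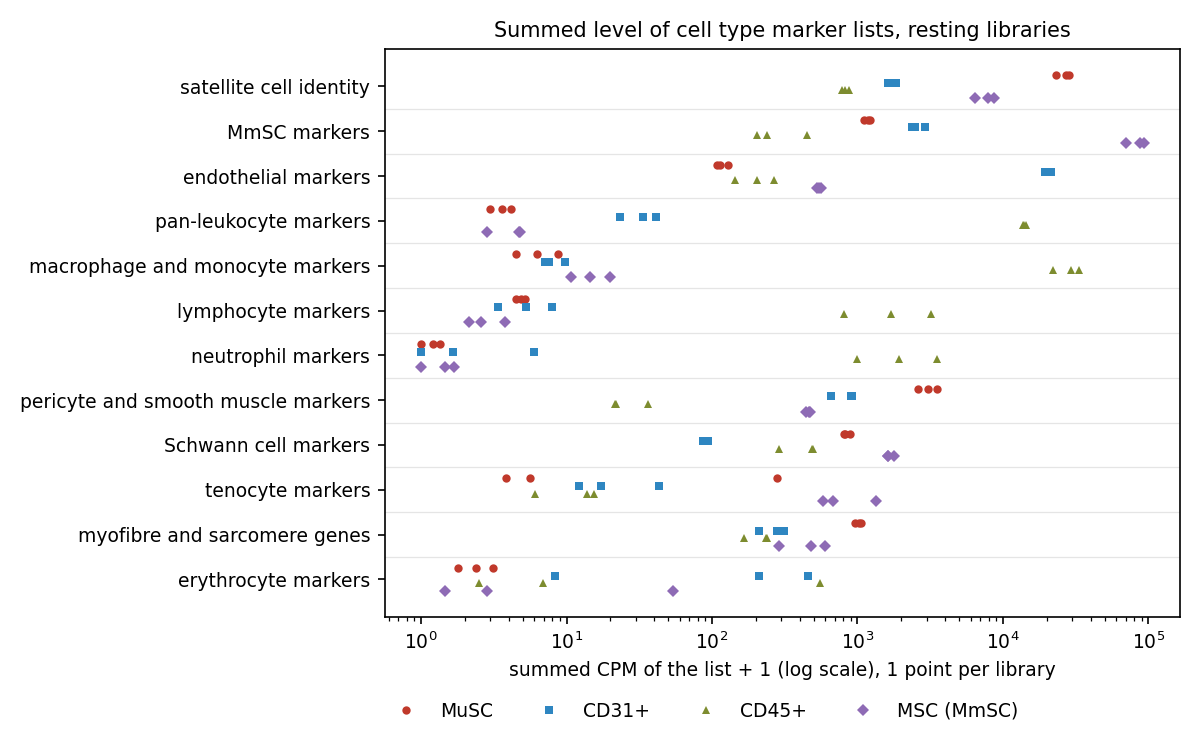
Summed CPM of 12 marker lists in each library, on a log scale after adding 1, with 1 point per library. The MuSC libraries are highest for the satellite cell, pericyte and smooth muscle, and myofibre lists, are far below the sorted population for MmSC, endothelial and leukocyte lists, and split for tenocyte markers, where 1 of 3 libraries is high.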

How the data were processed

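Polyadenylated RNA of sorted cells was sequenced, and the authors deposited raw counts per gene, made with STAR 2.7.3a and featureCounts on mm10 (GRCm38), per the submitters' processing notes. The annotation version, strandedness option and handling of multi-mapping reads were not given in the sources used here. The 12 day 0 libraries were taken by title, and 0 columns of per-sample values were left unmapped. Counts were filtered with filterByExpr (minimum count 10), scaled by TMM (factors 0.774 to 1.26) and fitted with edgeR 4.0.16 (R 4.3.3, limma 3.58.1) with 1 mean per population. MuSCs were compared with the mean of the fitted log2 levels of the other 3 and with each of them by two-sided quasi-likelihood F-tests, Benjamini-Hochberg adjusted over all 14830 genes and called under 0.05. A gene was called higher or lower than all 3 by the largest of its 3 one-sided p-values, adjusted likewise. The biological coefficient of variation was 22.93%.

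Ratios with counting intervals (95%) pool counts over pooled effective library sizes and cover counting error only; where a group had no count, the floor was 3 counts per library. Coordinates are from the GENCODE annotation of GRCm38, promoters from RefSeq. The genes named were the 15 with the largest smallest-pairwise difference above all 3 and the 10 below by the same rule, members of the identity, myogenic, Notch, adhesion, basement membrane, receptor and cell cycle lists, up to 4 members by p and 3 by level of each other list, and the 5 most like Pax7; other list members were named after their values were seen. Some list members are not reported here. The members and lists were chosen with earlier results of these data known. The steps were tested on simulated data. Alternatives were DESeq2 1.42.0, other scaling and filters, 24 sorted libraries, a replicate block, a 2-fold test, means of 2 populations, and each library left out.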

Additional observations from a re-analysis of the deposited data

How the results depend on the processing

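With scaling to library size alone, 5972 genes were higher than the mean of the others, 5822 were higher and 2192 lower than in MmSCs, and 1992 were higher and 414 lower than all 3 populations. In a test against a 2-fold change the counts higher and lower were 1558 and 1774 against the mean, 1780 and 2241 against CD31+ cells, 2229 and 2732 against CD45+ cells, 852 and 1790 against MmSCs, and 272 and 278 against all 3. The other 191 recomputed counts of these comparisons stayed within 1.5 times. Leaving out 1 library at a time gave 3119 to 3772 genes higher and 3351 to 3852 lower than the mean, 3118 to 3598 and 3651 to 4140 against CD31+ cells, 3746 to 4205 and 4107 to 4531 against CD45+ cells, 1952 to 2571 and 3127 to 3889 against MmSCs, and 626 to 820 and 726 to 911 against all 3. Scaling to library size alone also left 3 glycolytic, 1 fatty acid and 2 receptor genes lower, and turned Canx to 0.016. With DESeq2 6 neutrophil markers were lower. The log2 differences of 4 genes that were not called also turned: Tek was at 0.23 with library size alone and at -0.39 to 0.58 with libraries left out, and Fmod ran from -5.82 to 0.94, Thbs4 from -5.88 to 3.00 and Tnmd from -6.56 to 2.55, each lowest without MuSC library 3. The causes were not tested.

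Same-numbered libraries of different populations correlated in their deviations by -0.0097 to 0.112 (mean 0.0348), with 2 of 18 pairs over 0.1. The 36 different-numbered pairs ranged from -0.0902 to 0.0169 (mean -0.0174), and 11 of 12 libraries correlated best with their own number. The labels state no pairing, so the main fit had no replicate block. Whether same-numbered libraries share an animal or a preparation was not tested. With a replicate block 3648 genes were higher and 3681 lower than the mean. Depth limits genes near 0 counts: a gene with no count in MuSCs and in 1 more population has no usable error in a mean of logs.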
